A study of Homo sapiens with 3 samples.

Results

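EHF and 9 other ETS transcription factors were followed across KYSE150 cells that overexpressed LOXL2 Δe13, overexpressed wild-type LOXL2 or carried an empty vector. KYSE150 cells are an established human line from a squamous carcinoma of the esophagus, and LOXL2 is a secreted amine oxidase of the lysyl oxidase family; Δe13 is a splice form of it. Expression came from 3 PrimeView arrays, 1 per group, so no difference has a replicate check, and neither a test nor an error between cultures could be given. The sources used here do not say whether each line was 1 clone or a pool. The 10 genes were chosen by family membership together with earlier values of these same arrays, in which EHF had stood out, so what follows for EHF is a description. They are 10 of the 18132 genes that the arrays measured under a single symbol, and 10 of 28 genes of the human ETS family.

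ETS proteins share a winged helix-turn-helix domain that binds DNA around a GGAA core, and each acts as an activator or a repressor. One branch, with EHF, ELF3 and ELF5 and the prostate-derived factor SPDEF, is largely restricted to epithelia and is known for roles in epithelial differentiation. The others described are more widely expressed. ETS1 and ETS2 are nuclear targets of the RAS and MAPK pathway. ELK1 and ELK3 act with the serum response factor SRF, GABPA works in a complex with GABPB1 and is known for genes of mitochondrial function, and ELF1 is a broadly expressed relative.

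The promoters of EHF, ELF3 and ELF5 are shown as 3 of the 4 epithelial factors, chosen because their signals differed in pattern. Each sequence is the RefSeq stretch of GRCh38.p14 from 250 bases before to 50 bases after the gene's start, printed 5′ to 3′ on the gene's strand, with every GGAA or its reverse complement TTCC in capitals. EHF lies at chr11:34624007-34624306 on the plus strand, ELF3 at chr1:202010337-202010636 on the plus strand and ELF5 at chr11:34511675-34511974 on the minus strand.
EHF: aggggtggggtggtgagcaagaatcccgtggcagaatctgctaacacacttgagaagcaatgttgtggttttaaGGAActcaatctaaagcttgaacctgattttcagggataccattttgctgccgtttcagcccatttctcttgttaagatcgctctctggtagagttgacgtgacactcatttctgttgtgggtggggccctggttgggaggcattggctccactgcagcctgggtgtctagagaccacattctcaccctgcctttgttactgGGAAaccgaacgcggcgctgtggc
ELF3: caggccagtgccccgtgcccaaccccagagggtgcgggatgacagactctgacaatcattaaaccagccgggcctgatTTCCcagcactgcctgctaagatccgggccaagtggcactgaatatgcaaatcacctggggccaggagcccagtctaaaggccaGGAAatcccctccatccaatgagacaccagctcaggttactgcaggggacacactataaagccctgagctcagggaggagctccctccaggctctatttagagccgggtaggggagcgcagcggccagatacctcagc
ELF5: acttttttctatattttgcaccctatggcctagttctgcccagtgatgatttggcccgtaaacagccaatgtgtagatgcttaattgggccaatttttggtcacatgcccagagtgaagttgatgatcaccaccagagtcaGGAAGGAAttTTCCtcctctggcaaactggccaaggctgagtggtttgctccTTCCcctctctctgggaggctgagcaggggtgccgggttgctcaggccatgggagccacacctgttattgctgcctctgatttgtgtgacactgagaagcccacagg

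The EHF and ELF3 stretches held 2 matches of the core each and the ELF5 stretch 4. Over 27305 RefSeq promoters of this length, 95.5% held at least 1 GGAA on either strand, with a median of 3 matches. Of the 22 ETS family promoters in the table, 19 held it, with a median of 3 matches, and 8 of 9 members in the table did, ELF1 being the exception. The longer form CCGGAAGT, searched on both strands, was in 4.44% of all promoters and in 2 of those 22, belonging to GABPA and ELK4. It includes the core. A match is a description of letters and not a binding site.

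Signals are log2 RMA values of a probe set, a group of probes read as 1 measurement. Differences are between log2 values, and the brightest probe set on average stands for its gene. A floor was set at 5.94, the median over non-control values of all arrays. Values under it hold much background, which compresses folds. Probe sets differ in brightness for reasons other than transcript level, so signals are compared between arrays and not between genes. Array medians lay between 5.93 and 5.95. LOXL2, the overexpressed gene, has 4 probe sets, and they disagreed. One pair was higher in both LOXL2 arrays, with 5.06 and 5.38 in the empty vector array, 10.77 and 7.94 with Δe13, and 10.22 and 8.07 with the wild type. Another was higher only with the wild type, at 14.05 against 7.46 in the empty vector array and 7.41 with Δe13. The remaining one was not higher in either LOXL2 array, with 8.81 in the empty vector array, 8.73 with Δe13 and 8.32 with the wild type. Of 10 squamous epithelial markers, 7 were measured under a single symbol and all 7 lay above the floor in every array, among them the basal keratins KRT5 and KRT14. Their log2 summed signal was 13.20 in the empty vector array, 13.11 with Δe13 and 13.15 with the wild type. Of 9 measured markers of simple or glandular epithelium, 4 lay above the floor in every array and 5 below it. Their log2 summed signal was 14.15 in the empty vector array, 13.93 with Δe13 and 13.88 with the wild type, the same order as EHF below. All 4 above the floor were lower with the wild type, with a median of -0.21, and 2 of 4 were lower with Δe13, and their part in the EHF result was not tested. Leukocyte, fibroblast and endothelial markers lay below the floor in all arrays for 6 of 9, 8 of 9 and 6 of 8 measured genes. PTPRC, COL1A1 and CDH5 were among them. The leukocyte markers CD68 and CD79A, the fibroblast marker PDGFRB and the endothelial marker ENG lay above the floor in every array. CD68 was the brightest of these, at 8.97 in the empty vector array, 8.60 with Δe13 and 8.44 with the wild type. NKG7 and PECAM1 crossed the floor. The log2 summed signal of the leukocyte list was 9.55 in the empty vector array, 9.31 with Δe13 and 9.19 with the wild type. This is the order of EHF too, and its part in the EHF result was not tested. The fibroblast sums lay between 7.73 and 7.77 and the endothelial sums between 8.59 and 8.63.

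EHF was the ETS factor with the largest differences from the empty vector among those that reached the floor. On probe set 11764166_s_at its signal was 7.15 in the empty vector array, 6.37 with Δe13 and 5.49 with wild-type LOXL2. The control was highest, Δe13 came between, and the wild-type value lay below the floor. EHF was thus lower by a log2 difference of -0.78 with Δe13, which is 1.72-fold, and by -1.66 with the wild type, which is 3.16-fold. The Δe13 signal was 0.88 above the wild-type signal, or 1.84-fold. The 8 EHF probe sets together ran from -0.78 to 0.59 in the Δe13 difference and from -1.66 to 0.38 in the wild-type difference.

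Among all genes reaching the floor, 0 of 10881 were lower than EHF in the wild-type comparison and 9 of 10878 were lower in the Δe13 comparison. Only 3 of 10847 genes were further above the wild type in the Δe13 array. These ranks describe the values that made the gene stand out and are no independent evidence. Among the 6938 non-control probe sets with a mean within 0.5 of that of EHF, the standard deviation of wild type minus empty vector was 0.26. Their median difference was -0.03. This spread is between probe sets of 1 pair of arrays and not between cultures. EHF was chosen from the same values, so the spread is no measure of its error.

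The EHF difference rests mainly on that probe set. EHF has 8 probe sets on the array, and the remaining 7 were below the floor in all 3 arrays. Of these, 11759295_at followed the same order, with 5.44 in the empty vector array, 4.93 with Δe13 and 4.50 with the wild type. It gave differences of -0.52 and -0.94. The dimmer 11751414_a_at kept this order with smaller gaps, -0.06 and -0.31. Over the 6 dimmest sets, that one included, the Δe13 difference ran from -0.18 to 0.59 and the wild-type difference from -0.31 to 0.38. In all, 4 of 8 probe sets were lower with Δe13 and 5 of 8 with the wild type. The median over all 8 was 0.05 with Δe13 and -0.17 with wild-type LOXL2, so summarising EHF that way turns the sign in the first comparison and leaves neither near 1.5-fold. The sources used here do not give the exons that a probe set reads, and the suffix _s_at marks a probe set whose probes can match more than 1 transcript or gene.

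**Figure D1:**
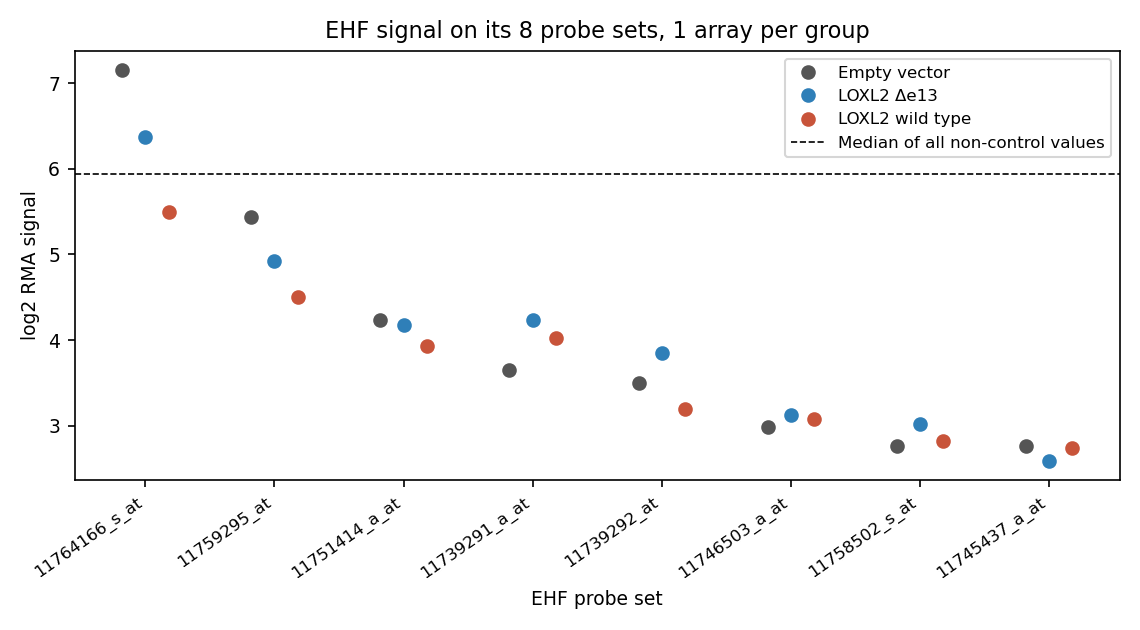
Log2 RMA signal (vertical axis) of the 8 EHF probe sets, ordered by their mean, in the 3 arrays, 1 point per array. The dashed line is the median of all non-control values, 5.94; probe set 11764166_s_at alone crosses it, and the 3 leftmost probe sets share the order empty vector, then Δe13, then wild type.

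ELF3, an epithelial factor induced by inflammatory signals, lay above the floor on all 3 of its probe sets. Probe set 11717594_s_at gave 9.25 in the empty vector array, 9.24 with Δe13 and 9.02 with wild-type LOXL2. The first pair was all but level and the wild-type value was lower by 0.23. Probe set 11751914_s_at followed it, with differences of -0.02 with Δe13 and -0.21 with wild-type LOXL2. The third, 11717595_s_at, went the other way, with 6.99 in the empty vector array, 7.13 with Δe13 and 7.50 with the wild type, a difference of 0.50. The probe sets of ELF3 therefore disagreed in direction for the wild type.

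SPDEF, known for secretory cell differentiation, differed little. On its brightest probe set the signal was 7.11 in the empty vector array, 7.04 with Δe13 and 7.03 with the wild type. Its 3 probe sets gave differences between -0.15 and 0.09 for Δe13 and between -0.20 and 0.05 for the wild type. The gap between its Δe13 and wild-type signals was 0.01, and its sign turned with centring of each array on its median, though not with quantile normalization or loess.

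ELF5, a factor of mammary and placental epithelium that lies next to EHF on chromosome 11, stayed below the floor on all 3 probe sets in every array. Its highest probe set read 3.24 in the empty vector array, 3.55 with Δe13 and 3.36 with the wild type. Signals this dim mark background or very low expression, and the gaps of 0.31 and 0.12 have no clear meaning as levels. Apart from EHF, differences on the representative probe sets of the epithelial branch were small. Over its 4 genes the median difference was -0.05 with Δe13 and -0.16 with wild-type LOXL2. With the median over probe sets the Δe13 value turned to 0.01. In each comparison 3 of 4 were lower, all but ELF5, which lay below the floor. Over all genes compared, 5604 of 10878 were lower with Δe13 and 5434 of 10881 with the wild type. Without EHF the 2 genes that reached the floor had medians of -0.05 and -0.16. For Δe13 minus wild type the median over the 4 genes was 0.20, and 0.11 over those 2. All 4 of 4 were higher, SPDEF by only 0.01, beside 4906 of 10847 genes over all compared. Nothing is read from these counts.

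**Figure D2:**
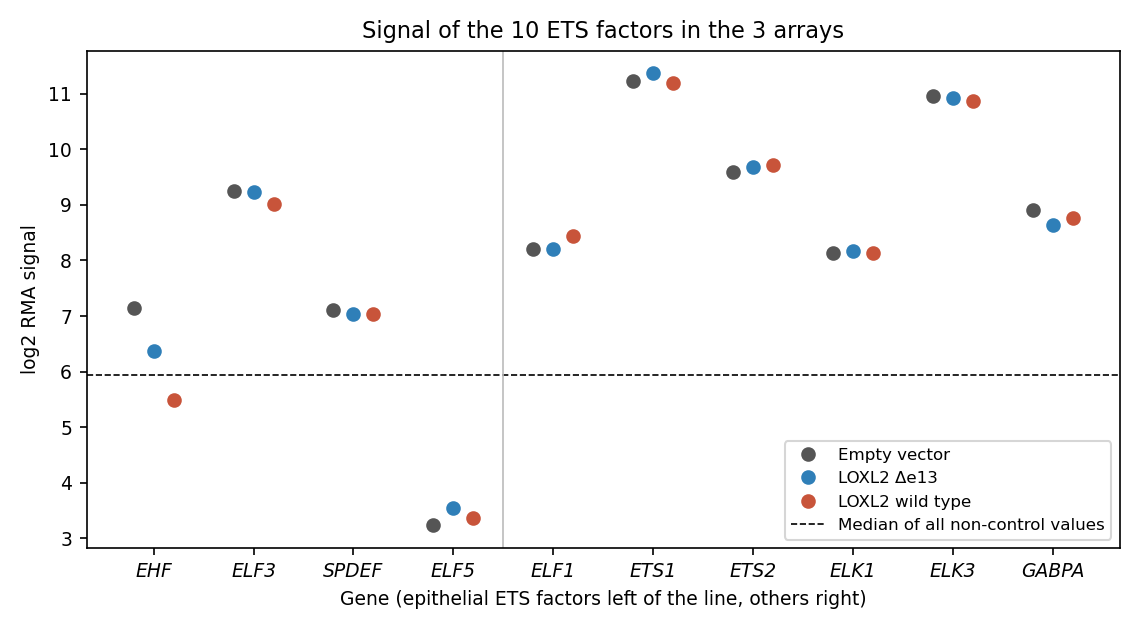
Log2 RMA signal (vertical axis) of the 10 ETS factors on their representative probe sets in the 3 arrays, 1 point per array, with the epithelial factors left of the grey line. EHF spans 7.15 to 5.49 across the arrays and crosses the dashed median of 5.94, ELF5 stays below it, and the other genes lie above it with points close together; heights are not comparable between genes.

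ETS1 and ETS2, which respond to RAS and MAPK signals, stayed above the floor on their representative probe sets. ETS1 read 11.22 in the empty vector array, 11.36 with Δe13 and 11.20 with wild-type LOXL2 on 11722300_a_at. Its second probe set above the floor, 11752387_a_at, gave differences of 0.14 with Δe13 and 0.35 with wild-type LOXL2. The Δe13 differences matched on both, while the wild-type ones did not. A further ETS1 probe set, 11722301_a_at, lay below the floor in every array and gave -0.32 with Δe13 and 0.01 with the wild type. ETS2 read 9.60, 9.68 and 9.71 in the empty vector, Δe13 and wild-type arrays on 11758370_s_at. Its other probe set gave -0.06 and -0.25, so the sign of ETS2 depended on the probe set.

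ELK1 and ELK3 are ternary complex factors that act with SRF at immediate early genes. ELK1 read 8.14 in the empty vector array, 8.17 with Δe13 and 8.13 with the wild type, which are near-equal values. The sign of its wild-type difference, -0.00, likewise turned with centring alone, and its other 2 probe sets lay below the floor. ELK3 read 10.96 in the empty vector array, 10.92 with Δe13 and 10.87 with the wild type. Both of its probe sets were lower by 0.09 to 0.10 in the wild-type array.

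GABPA, the DNA-binding subunit of the GABP complex, read 8.90 in the empty vector array, 8.64 with Δe13 and 8.76 with the wild type. Both LOXL2 arrays were lower, by -0.26 and -0.14. The first is the most negative Δe13 difference after EHF among the representative probe sets of the members. The other GABPA probe set, below the floor, gave -0.13 with Δe13 and 0.09 with the wild type. ELF1 read 8.21 in the empty vector array, 8.20 with Δe13 and 8.44 with the wild type. Its second bright probe set, 11719802_a_at, was higher in both, by 0.38 and 0.34. All 3 ELF1 probe sets were higher in the wild-type array. Over the 6 broadly expressed factors the median difference was 0.01 with Δe13 and -0.01 with wild-type LOXL2, and 0.00 between the LOXL2 arrays. With centring the wild-type value turned to 0.01 and the last to -0.02.

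**Figure D3:**
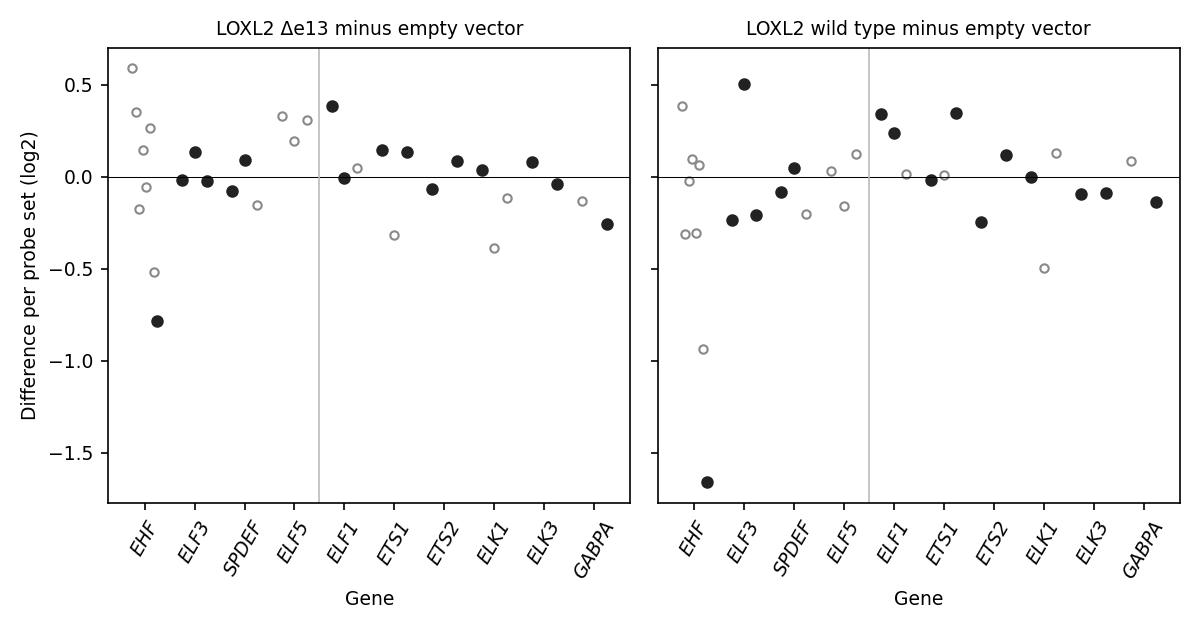
Log2 difference from the empty vector (vertical axis) for each of the 32 probe sets of the 10 ETS factors, Δe13 on the left and wild type on the right. Filled points have at least 1 array at or above the median signal and open points none; only EHF has filled points below -0.5, and several genes have filled points on both sides of 0.

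The members have 32 probe sets in all, with 15 above the floor in every array, 16 below it in every array and 1, the EHF set 11764166_s_at, crossing it. No member other than EHF differed by 1.5-fold on a representative probe set in any comparison. Over the 8 others that reached the floor, differences ran from -0.26 to 0.14 for Δe13, from -0.23 to 0.24 for the wild type and from -0.25 to 0.22 between the LOXL2 arrays.

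The rest of the ETS family comprises 18 genes, of which 8 reached the floor in at least 1 array. The largest differences of the wild type from the control among these 8 were in PEA3 factors, which are transcribed in response to MAPK signals. With Δe13 the largest was that of ELF2, at -0.18. ETV5 read 8.61 in the empty vector array, 8.53 with Δe13 and 8.15 with the wild type, a wild-type difference of -0.47. All 4 of its probe sets were lower with the wild type. ETV4 read 7.92, 7.79 and 7.54 in the empty vector, Δe13 and wild-type arrays, lower by -0.38 in the last on its brightest probe set and by -0.23 on the other. On their brightest probe sets both genes were thus low in the wild-type array and close to the control with Δe13. The other ETV5 set above the floor, 11720352_at, gave -0.24 with Δe13 and -0.35 with the wild type.

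ETV6, a repressor with a pointed domain, differed by 0.06 with Δe13 and 0.19 with wild-type LOXL2. The related ETV7 gave -0.10 and -0.15, and the repressors ERF and ETV3 gave -0.13 and 0.03, and 0.07 and -0.13. ELF2, a relative of ELF1, differed by -0.18 and 0.15, and ELF4 by 0.02 and 0.05. None of these reached 1.5-fold.

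The other 10 family genes had representative signals below the floor in every array. They include ERG and FLI1, known from endothelial and blood cells, and SPI1, SPIB and SPIC, factors of blood cells. ELK4 was higher by 0.69 in both LOXL2 arrays, from 4.21 in the empty vector array. SPI1 was lower by -0.67 in the wild-type array, from 5.01. These 2 genes and EHF were the family members with a representative difference past 1.5-fold in any comparison, and those of ELK4 and SPI1 come from signals in the background range.

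Counted over the family, 17 of 28 genes reached the floor in each comparison. For Δe13 minus the empty vector, 1 of 17 was at least 1.5-fold lower, beside 0.303% of all 10878 genes compared, and 0 of 17 were that much higher, beside 0.359%. For wild type minus the empty vector, 1 of 17 was at least 1.5-fold lower, beside 0.919% of 10881 genes, and 0 were higher, beside 2.02%. That gene, EHF, was also past 2-fold, beside 0.101% of genes at least 2-fold lower. For Δe13 minus wild type, 1 of 17 was at least 1.5-fold higher, beside 0.184% of 10847 genes, and 0 were lower, beside 0.12%. In each case the 1 gene was EHF, which had been chosen from these contrasts, so nothing is read from the shares. Without EHF the median difference of the 16 others was -0.03 for Δe13, -0.05 for the wild type and 0.02 between the LOXL2 arrays, against -0.01, 0.00 and -0.01 (a median of -0.015) over all genes compared.

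**Figure D4:**
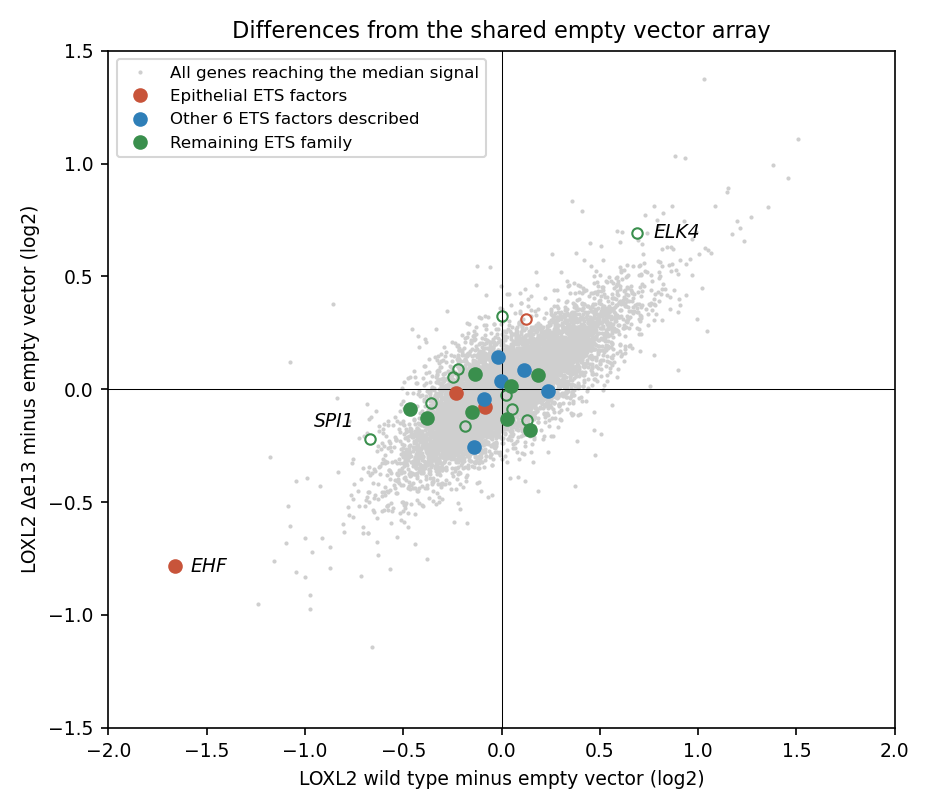
Log2 difference from the empty vector for wild-type LOXL2 (horizontal) and LOXL2 Δe13 (vertical). Small grey points are the 10954 genes with a signal at or above the median in at least 1 array (2 lie outside the axes), large points are ETS genes, filled where they reach the median signal and open where they do not. EHF sits at -1.66 and -0.78, away from the other ETS genes; both axes share the empty vector array, so they are not independent.

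Both LOXL2 comparisons use the same control array, so a high EHF reading in that array alone would lower EHF in both. The gap of 0.88 between the LOXL2 arrays does not involve the control. Background probe sets rich in G and C, 9 in number, were lower in the wild-type array than in the control by a median of -0.23 and lower in the Δe13 array by -0.06. They were 0.16 higher with Δe13 than with the wild type. This follows the order of EHF at a smaller size, and its part in the result was not tested. Probe sets with a mean below the floor had median differences of 0.00 and -0.05 from the control.

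By likeness of pattern, the genes nearest to EHF were sought among 10702 others with a mean above the floor, by Euclidean distance between the 2 differences from the empty vector. PHLDA1, a pleckstrin homology-like domain protein, was nearest at a distance of 0.45, with differences of -0.95 with Δe13 and -1.24 with wild-type LOXL2 on its brightest probe set. EXD3 followed at 0.57, with -0.68 and -1.10, and 2 of its 3 probe sets above the floor shared the direction in each comparison. The glycolytic enzyme ALDOC came next at 0.61, with -0.61 and -1.08, and then the small GTPase RAB26 at 0.62, with -0.81 and -1.04, and the antisense gene ZNF436-AS1 at 0.63, with -0.52 and -1.09. Likeness here rests on 3 arrays and their shared control. Strand handling is not described in the labels, so ZNF436-AS1 is uncertain.

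Differences of the genes beside EHF on chromosome 11 were smaller, but EHF had been chosen for its large differences, so nothing is read from this. On the ELF5 side, after ELF5 itself, catalase (CAT) read 8.87 in the empty vector array, 8.67 with Δe13 and 8.50 with the wild type, and ABTB2 differed by 0.13 and 0.10. On the far side, APIP, an enzyme of methionine salvage, was lower by -0.26 and -0.29, the pyruvate dehydrogenase component PDHX differed by 0.09 and 0.19, and the hyaluronan receptor CD44 by -0.04 and -0.10. None of these 6 neighbours reached 1.5-fold, which few genes did. With Δe13, 0.303% of all genes compared were that much lower and 0.359% higher. With the wild type the shares were 0.919% and 2.02%. FLI1, next to ETS1, and ERG, near ETS2, were below the floor. Of the other neighbours of ETS1 and ETS2, the proteasome assembly gene PSMG1, beside ETS2, had the largest difference above the floor, 0.42 for the wild type. Beside ELF3, the aminopeptidase RNPEP differed by -0.23 and -0.38 and the mitochondrial import gene TIMM17A by 0.30 and 0.37.

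Partners and upstream kinases of ETS factors were compared as a list of 18 genes, with 12 reaching the floor. Of these, 8 of 12 were higher with Δe13 and 9 of 12 with the wild type, with medians of 0.04 and 0.13. Over all genes compared, 5248 of 10878 were higher with Δe13 and 5432 of 10881 with the wild type, and 5604 and 5434 were lower. The difference between the list and all genes was not tested. JUN, the AP-1 subunit that binds beside ETS factors at many enhancers, read 8.69 in the empty vector array, 9.34 with Δe13 and 9.29 with the wild type. It was at least 1.5-fold higher in both, at 0.65 and 0.60, on 4 of 4 probe sets in the same direction. The coactivators EP300 (0.29 and 0.53) and CREBBP (0.35 and 0.53) were higher too, and 4 of 4 CREBBP probe sets above the floor shared the direction. The kinase MAPK3 was lower, by -0.24 and -0.36.

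Epithelial transcription and splicing factors that work beside the ETS branch held 10 genes that reached the floor for Δe13 and 11 for the wild type, with medians of 0.05 and 0.11. GRHL1, a grainyhead factor of epidermal differentiation, read 7.50 in the empty vector array, 8.05 with Δe13 and 8.21 with the wild type. Its wild-type difference of 0.71 passed 1.5-fold, while the Δe13 difference of 0.55 did not. TFAP2A, an AP-2 factor of surface ectoderm, was lower by -0.59 and -0.56 on 3 of 3 probe sets above the floor, and the first of these passed 1.5-fold. Of the 2 GRHL1 probe sets above the floor, 1 was higher with Δe13 and both with the wild type. ESRP2, an epithelial splicing regulator, differed by 0.08 and 0.30, and KLF4, a factor of squamous differentiation, by 0.23 and 0.29. Only 1 of the 2 KLF4 probe sets above the floor shared the direction in each comparison. Of these regulators, 6 of 10 were higher with Δe13 and 8 of 11 with the wild type, and nothing is read from these counts beside the shares over all genes given above. Of the 7 squamous markers, 5 were lower and 2 higher in each LOXL2 array. KRT14 (-0.45 and -0.67) and the desmosomal cadherin DSC3 (-0.65 and -0.53) were the lowest, while the cadherin DSG3 (0.19 and 0.34) and the laminin subunit LAMB3 (0.24 and 0.10) were higher. The part of these differences in the EHF result was not tested.

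Reported targets of the epithelial ETS branch were a list of 19 genes, with 10 reaching the floor in each LOXL2 array against the control. The median was -0.07 for Δe13, with 3 of 10 higher, and -0.00 for the wild type, with 5 of 10 higher. LCN2, a siderophore-binding lipocalin, read 5.82 in the empty vector array, 6.66 with Δe13 and 6.18 with the wild type. Its Δe13 difference of 0.84 was the 1 value past 1.5-fold on this list, from a control below the floor. The cytokines IL6 (0.46 and 0.34) and CCL20 (0.35 and 0.15) were higher, and the receptor ERBB3 was lower by -0.25 and -0.24. Of the 2 ERBB3 probe sets above the floor, both were lower with Δe13 and 1 with the wild type. Both directions were thus present on the list.

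Reported targets of ETS1 and ETS2 reached the floor in 5 of 11 measured genes, with medians of 0.04 and 0.01. The matrix glycoprotein TNC read 7.85 in the empty vector array, 8.23 with Δe13 and 8.63 with the wild type, a wild-type difference of 0.78 with 3 of 3 probe sets in that direction. PLAU, the urokinase protease, was level with the control for Δe13 (0.03) and lower for the wild type (-0.50, 3 of 3 probe sets). The pair differed in opposite directions in the wild-type array. The cell cycle genes CCND1 (-0.12 and -0.14) and CDKN1A (0.14 and 0.10) differed less.

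Targets of SRF with the ternary complex factors, where ELK1 and ELK3 act, were lower in 6 of 9 genes for Δe13 and in 8 of 9 for the wild type, with medians of -0.04 and -0.09, beside 5604 of 10878 and 5434 of 10881 genes lower over all compared. JUNB, an AP-1 subunit, read 8.37 in the empty vector array, 7.99 with Δe13 and 7.70 with the wild type, and its -0.67 was the 1 value past 1.5-fold. NR4A1, an orphan nuclear receptor, differed by -0.14 and -0.36, the survival factor MCL1 by -0.08 and -0.24, and EGR1, a zinc finger factor, by -0.22 and -0.05. The MCL1 probe sets disagreed, with 3 of 6 sharing the wild-type direction.

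Reported GABPA targets all reached the floor, 11 of 11, with medians of -0.01 and -0.01. SKP2, a ubiquitin ligase subunit of cell cycle control, read 8.53 in the empty vector array, 8.02 with Δe13 and 7.84 with the wild type. Its wild-type difference of -0.70 passed 1.5-fold and its Δe13 difference of -0.52 did not. The mitochondrial transcription genes TFB1M (-0.06 and -0.29), TFB2M (-0.01 and 0.21) and TFAM (0.00 and 0.18) differed less and went different ways.

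**Figure D5:**
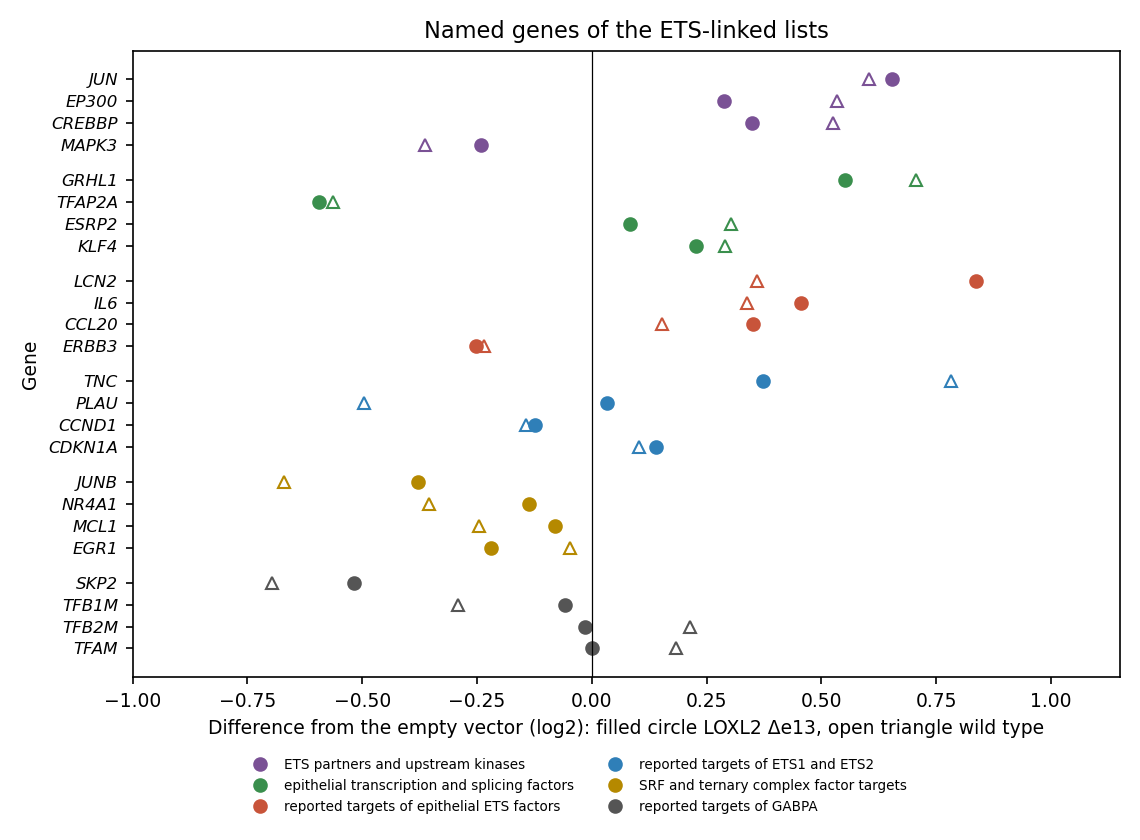
Log2 difference from the empty vector (horizontal axis) of the up to 4 genes per list with the largest differences, with filled circles for Δe13, open triangles for the wild type and 1 colour per list. JUN, TNC, GRHL1 and LCN2 lie furthest right, JUNB, SKP2 and TFAP2A furthest left, and every list except that of SRF targets has points on both sides of 0.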

How the data were processed

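RNA of KYSE150 cells was hybridised to PrimeView arrays, 3 arrays in 3 groups. The authors deposited 1 log2 signal per probe set and array, made with RMA per the submitters' processing notes. RMA subtracts background, equalises the arrays and combines the probes of a set. The sources used here name neither its version nor the chip definition, and the scale was inferred from the range of values. Of 49395 probe sets, 102 were controls, and 44988 of the others had a single symbol in GEO's platform annotation, updated through Entrez IDs in a RefSeq table of GRCh38.p14. That table also gave gene order, used for the 3 measured genes on each side of EHF, ELF3, ETS1 and ETS2.

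A gene was its probe set with the highest mean. It entered a comparison if the higher of the 2 values reached the median of all non-control values. Differences were counted at 1.5-fold (0.58 on the log2 scale) and, for EHF, 2-fold. The members and gene lists were chosen with earlier results of these data known. Named were all members, all ETS genes reaching the floor, up to 4 genes per list with the largest difference, the 5 genes nearest to EHF and the neighbours; ELK4, SPI1 and low ETS genes were named after their values were seen. List genes past that rule are counts. The target lists are from general knowledge. Alternatives were the median over probe sets, centring, quantile normalization, loess (span 0.3), a stricter floor at the 75th percentile (7.86), no floor at all, and 2-fold. The fold rule was run on simulated data as a check of the code, which does not measure false calls with 1 array per group. Calculations used Python 3.11.15, numpy 2.4.6, pandas 2.3.3, statsmodels 0.14.6 and matplotlib 3.10.9.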

Additional observations from a re-analysis of the deposited data

How the results depend on the processing

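With 1 array per group, precision is limited by the number of arrays. Signal over background also limits the values: 7 of 8 EHF and 3 of 3 ELF5 probe sets lie below the floor in every array. Centring, quantile normalization and loess kept the direction of all 3 EHF differences, which ran from -0.80 to -0.78, from -1.66 to -1.64 and from 0.84 to 0.88. RMA had already equalised the arrays, so these steps could shift differences of this size only a little. Nothing is read from the kept direction. With the median over all probe sets the Δe13 difference of EHF from the control turned to 0.045, the wild-type difference became -0.17, and the gap between the LOXL2 arrays 0.23. The count of ETS genes at least 1.5-fold lower then went from 1 to 0 in both comparisons with the control, and that of genes higher in Δe13 than wild type from 1 to 0. A floor at the 75th percentile gave 0 in all 3 of these counts. Asking for 2-fold gave 0 lower with Δe13 against the control and 0 higher with Δe13 against the wild type. Without a floor, 1 gene (ELK4) was at least 1.5-fold higher in each LOXL2 array than in the control and 2 were lower in the wild type. Among the group medians, that of the epithelial factors with Δe13 turned from -0.05 to 0.01 with the median over probe sets, and centring turned those of the other factors from -0.01 to 0.01 with the wild type and from 0.00 to -0.02 between the LOXL2 arrays. No paired analysis was possible because each group has 1 array.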
